A study of Drosophila melanogaster with 17 samples.

Results

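The guts of 5-day-old Drosophila melanogaster were sequenced under 2 labels, whole gut and midgut, and the gene expression of these 4 libraries, 2 of each, was compared across all genes. The libraries were taken by their titles and are 4 of 17 in the series, which also holds older guts, guts and fat bodies from Lam-RNAi flies and fat bodies of untreated flies. Young whole gut and young midgut flies were 5 days old, carried no RNAi treatment and were wild type young controls by the series design. The other gut groups read here, each with 2 libraries, were old whole gut at 40 days, old midgut at 50 days and midgut from Lam-RNAi flies at 5 days, in which the gene for lamin-B is the RNAi target. The labels used here give neither strain nor sex, nor an RNAi driver, nor the number of animals in a library. No label says how far a whole gut dissection reached, and the 2 kinds of gut stand in separate groups with no dissection or preparation date, so gut region and gut series cannot be told apart. Lam itself stood at 19.5 and 16.7 CPM in young whole gut, 28.9 and 32.1 CPM in young midgut and 32 and 30.4 CPM in the Lam-RNAi midgut, so the target's level in that midgut was near the young midgut values.

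The fly gut is a tube of foregut, midgut and hindgut. The midgut is of endodermal origin and secretes digestive enzymes and takes up nutrients, whereas foregut and hindgut are ectodermal and lined with cuticle. The Malpighian tubules, the fly's kidneys, join the gut at the border of midgut and hindgut and move ions, water and organic solutes into the lumen by means of a proton pump and a sodium pump.

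Counts were available for 14095 genes once entries with the same position and counts had been joined, and 10327 genes had enough counts to be tested. A gene could pass this filter through a single group where it was high. For lists with many untested genes the counts of higher and lower members are therefore descriptions. The 4 libraries held between 31637135 and 36216068 counts, and 3 counts equal 0.0828 to 0.0948 CPM, the share of a library's total count scaled to 1e6. One model was fitted to all 10 gut libraries with edgeR's quasi-likelihood test, and a gene was called at a Benjamini-Hochberg adjusted p below 0.05. Fold changes are whole gut relative to midgut on the scale of edgeR's TMM factors, not of library totals alone. A positive log2 value means a higher level in whole gut on that scale. A small positive value can go with a lower share of the library total. In bulk tissue fewer cells of a type and less RNA per cell cannot be told apart, and p-values measure the spread between libraries that the series design calls biological replicates.

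Whole gut and midgut differed in 5756 genes, 55.7% of those tested. Of these, 2588 genes (25.1% of those tested) were higher and 3168 (30.7%) were lower in whole gut. Counts of each gene list below are to be read beside these shares. Differences of at least 2-fold numbered 2053 (19.9% of genes tested) and of at least 8-fold 693 (6.71%), of which 218 were higher and 475 lower. CPM values of the 2 groups did not overlap for 8022 genes, 77.7% of those tested. With library totals alone as the scale, the log2 fold changes moved by -0.24 at the median and the share of higher genes among calls was 23.7% instead of 45.0%; under upper quartile factors the shift was -0.07 and the share 37.8%. For the gene lists whose counts of higher or lower genes moved by over 1.5 times under library totals alone, those counts are given as well. On the map of the files 5250 of the 14095 genes overlap another gene, and the library kit named in the labels does not mark strand, so reads in shared stretches cannot be assigned to either gene.

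The same contrast at the older ages shares no library with the young one and called 5521 genes (53.5%), of which 2828 (27.4%) were higher and 2693 (26.1%) lower in old whole gut. Genes higher in whole gut at both ages numbered 1322, which is 51.1% of the young and 46.7% of the old list. Genes lower at both ages numbered 1213, or 38.3% of the young and 45.0% of the old list. Calls of opposite direction numbered 1025 (9.93% of genes tested), and the difference itself changed between the ages for 4602 genes (44.6%) by the interaction term. The large differences split unevenly, since 173 of the 218 genes at least 8-fold higher in young whole gut (79.4%) were also called higher in old whole gut, whereas 108 of the 475 genes at least 8-fold lower (22.7%) were also called lower in old whole gut. The order of the 10 gut libraries was then read for both sets, in CPM divided by the TMM factor of each library. Counts of such orders given below for gene lists use the same scale. A large young difference by itself places genes at one end of such an order, so these shares are descriptions, given beside the share among all genes called in the same direction. Among the 475 genes, 384 (80.8%) had levels in both young midgut libraries above the other 8 gut libraries, a pattern of 46.4% of the genes called lower and 16.1% of all tested. For 190 of the 475 (40.0%) both young whole gut libraries were below the other 8, against 40.2% of the genes called lower and 15.8% of all tested. Among the 218 genes, 177 (81.2%) were above all 6 midgut libraries in all 4 whole gut libraries, a pattern of 43.6% of the genes called higher and 12.1% of all tested. For 146 of the 218 (67%) both young whole gut libraries were above the other 8, against 48.0% of the genes called higher and 13.6% of all tested. For 69 of the 218 (31.7%) both young midgut libraries were below the other 8, against 33.4% of the genes called higher and 10.1% of all tested.

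**Figure D1:**
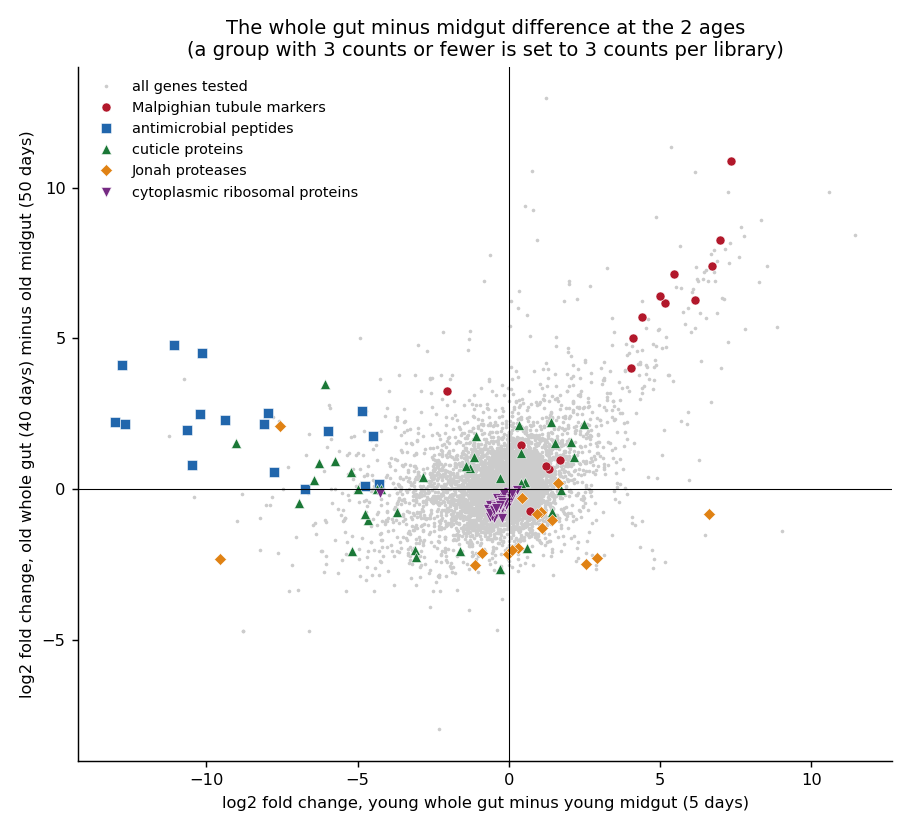
Log2 fold change of whole gut relative to midgut for each gene tested, at 5 days (horizontal axis) and between old whole gut at 40 days and old midgut at 50 days (vertical axis), with 5 gene lists in colour and a group with 3 counts or fewer set to 3 counts per library. Most tubule markers lie at the upper right, high in whole gut at both ages, whereas the antimicrobial peptides lie far to the left and near or above 0 on the vertical axis.

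Genes of the Malpighian tubule were far higher in whole gut than in midgut. Of 16 tubule markers tested, 14 were higher in young whole gut, against 25.1% of all genes, 1 was lower and 1 did not pass, with a median log2 fold change of 4.25. Uro, urate oxidase, which degrades uric acid in the tubule, had 1038 and 1032 CPM in the young whole gut libraries and 7.99 and 6.96 CPM in young midgut (log2 fold change 7.35 ± 0.10 (SE), adjusted p = 1.62e-15). The gene lies at 2L:7780085-7781415, plus strand, in the coordinates of the deposited files, whose build is not given in the sources used here. Levels of Uro were 1021 and 1057 CPM in old whole gut but 0.531 and 0.46 CPM in old midgut and 0.843 and 0.798 CPM in Lam-RNAi midgut. Young midgut therefore carried more Uro than the other midgut libraries, and its Uro share was still far below whole gut.

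Tubule transporters followed the same order. NaPi-T, a phosphate transporter of the tubule, read 475 and 495 CPM in whole gut and 6.29 and 9.83 CPM in midgut (6.15 ± 0.12, adjusted p = 7.42e-14 on the log2 scale). The zinc transporter gene ZnT35C, which serves zinc storage in the tubule, had 129 and 120 CPM in whole gut and 6.7 and 7.34 CPM in midgut (4.39 ± 0.09, adjusted p = 4.07e-14). In each of these genes the 2 groups were well apart. Oatp58Dc, an organic anion transporter, measured 299 and 296 CPM in whole gut against 8.96 and 10.9 CPM in midgut (5.15 ± 0.09, adjusted p = 6.14e-15). Irk3, an inwardly rectifying potassium channel, had 141 and 158 CPM in whole gut and 0.82 and 1.93 CPM in midgut (6.99 ± 0.22, adjusted p = 7.73e-10); its position shares 227 bases with Grip71.

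A tubule receptor and a tubule regulator were higher as well. The receptor gene for capa peptides, capaR, which controls fluid secretion in principal cells, read 16.7 and 19.3 CPM in whole gut and 0.146 and 0.249 CPM in midgut (6.72 ± 0.23, adjusted p = 1.14e-11). Cut (ct), a homeobox factor needed for tubule development, read 82 and 81.8 CPM in whole gut and 2.9 and 3.18 CPM in midgut (4.99 ± 0.11, adjusted p = 6.51e-14). In both genes the groups were far apart. The exceptions, named after their values were seen, were Cyp4e3, a tubule cytochrome P450, at 9.54 and 13 CPM in whole gut and 45.6 and 63.9 CPM in midgut (-2.04 ± 0.15, adjusted p = 9.84e-08), and tio, a zinc finger factor, at 0.919 and 2.05 CPM in whole gut and 1.23 and 1.44 CPM in midgut (0.39 ± 0.36, adjusted p = 0.39, not passed). At the older ages Cyp4e3 was higher in whole gut (3.26).

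At the older ages 15 of the 16 markers were higher in whole gut (median 5.35), and against the Lam-RNAi midgut, a comparison that reuses the young whole gut libraries, 14 were (median 5.79). A count of 13 markers had the same direction at both ages, and 13 were above all 6 midgut libraries in all 4 whole gut libraries, against 12.1% of all genes. The summed level of the list was 3746 and 3787 CPM in young whole gut, 800.2 and 836 CPM in young midgut, 925 and 787 CPM in old midgut and 1424 and 1613 CPM in Lam-RNAi midgut, of which Cyp6g1, a detoxifying P450 also used by the midgut, made up 546 and 528 CPM in young midgut and 1163 and 1354 CPM in Lam-RNAi midgut. None of the 16 markers was at 0 in any gut library, and the 1 marker lower in old whole gut was Cyp6g1 (-0.74), named after its values were seen.

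Further genes with a large excess in whole gut at both ages were Syt4, a synaptotagmin of vesicle traffic, at 63.9 and 71.3 CPM against 0.205 and 0.304 CPM (log2 fold change 8.27 ± 0.15 (SE), adjusted p = 1.44e-14). Scp2, a calcium-binding protein, measured 370.4 and 372 CPM in whole gut and 3.51 and 6.54 CPM in midgut (6.44 ± 0.16, adjusted p = 4.68e-11). Scarlet (st), an ABC transporter for pigment precursors that is also expressed in tubules, stood at 84.6 and 97.1 CPM in whole gut and 1.55 and 1.96 CPM in midgut (5.93 ± 0.12, adjusted p = 4.35e-14), with 2808 bases of its span shared with CG42513. Each of them was also higher in old whole gut. Their log2 fold changes there were 6.86, 7.2 and 6.00. Detoxifying enzymes with this pattern were the UDP-glycosyltransferase Ugt35b (291 and 323 CPM in whole gut against 3.57 and 4 CPM in midgut, 6.58 ± 0.11, adjusted p = 4.71e-15), the glutathione transferase GstE10 (103 and 115 CPM in whole gut against 6.15 and 5.94 CPM in midgut, 4.41 ± 0.11, adjusted p = 4.39e-13) and the P450 Cyp6a18 (198 and 228 CPM in whole gut against 5.47 and 6.27 CPM in midgut, 5.42 ± 0.11, adjusted p = 9.83e-14). Picked after its values were seen, CG17752, known only by its computed number in the files, had 1036 and 1177 CPM in whole gut and 0.907 and 0.801 CPM in midgut (10.58 ± 0.12, adjusted p = 7.43e-16).

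**Figure D2:**
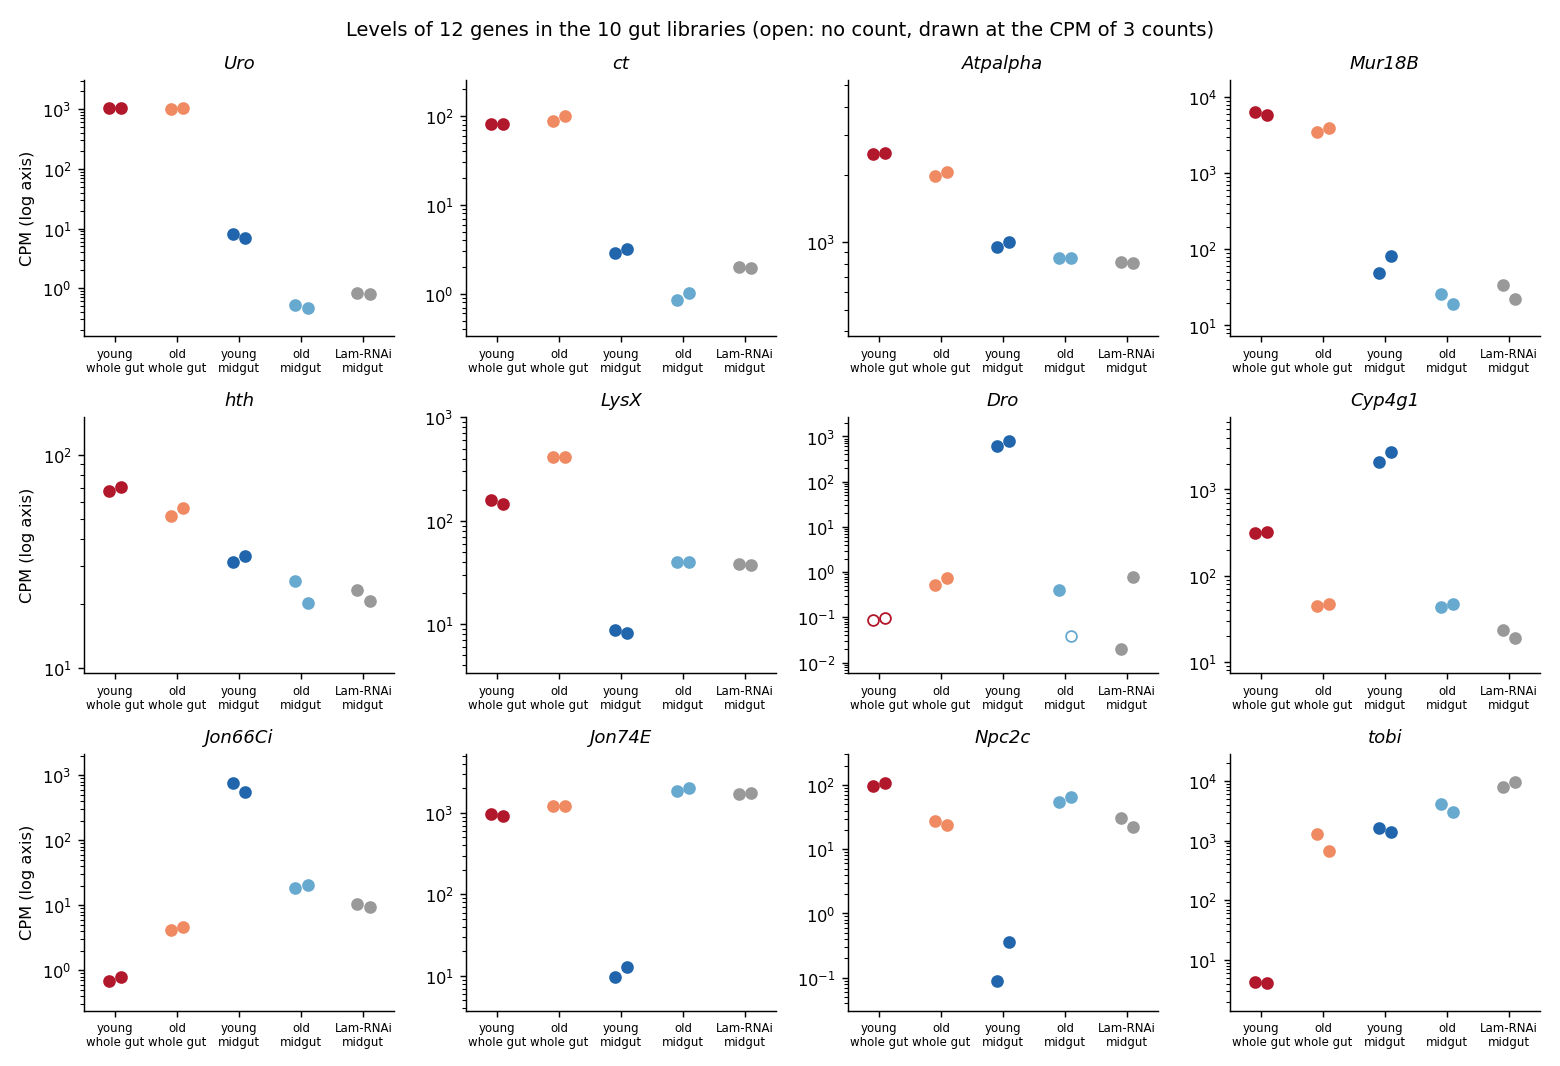
CPM of 12 genes (log axis) in each of the 10 gut libraries, by group, with a library without counts drawn open at the CPM of 3 counts. Uro, ct, Atpalpha, Mur18B, hth and LysX are higher in the 4 whole gut libraries than in the 6 midgut libraries, Dro, Cyp4g1 and Jon66Ci are highest and Jon74E and Npc2c lowest in young midgut, and tobi is lowest in young whole gut.

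Pumps and channels that drive fluid transport were divided. Of 34 ion and water transport genes tested, 17 were higher, against 25.1% of all genes, 6 lower and 11 did not pass (median log2 fold change 0.39). Atpalpha, the catalytic subunit of the sodium pump, had 2481 and 2503 CPM in whole gut and 950.2 and 1002 CPM in midgut (1.59 ± 0.07, adjusted p = 1.84e-10). The difference in Atpalpha was also present at the older ages (1.08, adjusted p = 1.35e-08). Best1, a chloride channel of the bestrophin family, stood at 79.5 and 89.4 CPM in whole gut and 30.4 and 33.7 CPM in midgut (1.64 ± 0.08, adjusted p = 5e-10). Irk3, described above, is also on this list. With library totals alone as the scale the list gave 13 higher and 11 lower (median 0.15).

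Ncc69, a cotransporter of sodium, potassium and chloride, went the other way, with 38.3 and 41.9 CPM in whole gut and 109 and 127 CPM in midgut (-1.32 ± 0.06, adjusted p = 6.41e-10). Old whole gut and old midgut did not differ past the threshold in Ncc69 (0.07, adjusted p = 0.361). Young midgut had the highest CPM of Ncc69 among the 5 gut groups. Subunits of the vacuolar proton pump, which acidifies the midgut's copper cell region and energises tubule secretion, were higher in 11 of 17 cases and lower in 0 (median 0.29). The a subunit Vha100-2 had 1018 and 1030 CPM in whole gut and 711 and 804 CPM in midgut (0.67 ± 0.06, adjusted p = 7.82e-07), although 2160 bases of it overlap koko, and Vha68-2, a catalytic A subunit, had 3180 and 3254 CPM in whole gut and 2524 and 2639 CPM in midgut (0.55 ± 0.07, adjusted p = 1.71e-05). At the older ages 4 subunits were higher and 6 lower (median -0.08). On the scale of the TMM factors, 14 of the 17 had their highest gut levels in both young whole gut libraries, against 13.6% of all genes. With library totals alone as the scale the young contrast gave 3 higher and 1 lower (median 0.05), so the count of higher subunits rests on the scaling.

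Hindgut regulators differed by smaller factors, and the defining gene was present under both labels. Of 9 genes tested, 5 were higher, against 25.1% of all genes, 2 lower and 2 did not pass, with a median log2 fold change of 0.26. Library totals alone gave 2 higher and 2 lower (median 0.01). Brachyenteron (byn), the T-box factor that specifies the hindgut, had 14.1 and 8.69 CPM in whole gut and 4.57 and 6.65 CPM in midgut (log2 fold change 1.27 ± 0.22 (SE), adjusted p = 0.000491). The other groups labelled midgut also contained byn, with 13.6 and 13.1 CPM in old midgut and 14.7 and 17.8 CPM in Lam-RNAi midgut against 16.9 and 15.7 CPM in old whole gut. No contrast was called at the older ages (0.11, adjusted p = 0.665) or against the Lam-RNAi midgut (-0.13, adjusted p = 0.601). The defining hindgut gene thus had counts in all 6 libraries labelled midgut. Bowl, a zinc finger factor of hindgut patterning, had 69.6 and 61.4 CPM in whole gut and 34.4 and 38.1 CPM in midgut (1.09 ± 0.08, adjusted p = 3.25e-08) and 58.5 and 51.5 CPM in old midgut. Orthopedia (otp), a homeobox gene of the hindgut, read 2.07 and 2.72 CPM in whole gut and 1.93 and 1.93 CPM in midgut (0.54 ± 0.22, adjusted p = 0.0464) and had its highest gut levels in the Lam-RNAi midgut, 4.49 and 5.2 CPM. The otp call was lost in 12 of 16 alternatives, which gave log2 fold changes from 0.31 to 0.73; without young midgut replicate 1, young midgut replicate 2 or young whole gut replicate 2 it was 0.61, 0.48 and 0.36. The Hox gene Abd-B, which marks posterior segments, had 3.56 and 2.28 CPM in whole gut and 1.67 and 2.37 CPM in midgut (0.77 ± 0.25, adjusted p = 0.0177), with 1 midgut library above 1 whole gut library. Its call was lost in 7 of the 16 alternatives, among them without young midgut replicate 1 (0.61) and without young whole gut replicate 1 (0.41).

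The 2 secreted signals called were lower in whole gut. Wingless (wg), the Wnt ligand made at gut boundaries, had 0.919 and 1.61 CPM in whole gut and 3.42 and 3.23 CPM in midgut (-1.17 ± 0.25, adjusted p = 0.00122), and hedgehog (hh) had 17.9 and 16.9 CPM in whole gut and 31.1 and 40.8 CPM in midgut (-0.80 ± 0.11, adjusted p = 4e-05) with 282 bases shared with CG31457. The hh difference was opposite at the older ages (1.42) and against the Lam-RNAi midgut (1.68). Of 5 Hox genes tested, 1 (Abd-B) was higher and 3 were lower, and library totals alone gave 0 higher and 4 lower (median -0.95). Of the other Hox genes called, abd-A was lower in whole gut, at 4.68 and 4.52 CPM in whole gut and 7.9 and 9.91 CPM in midgut (-0.71 ± 0.15, adjusted p = 0.000931). Antp (-0.71 ± 0.25, adjusted p = 0.0292) and Ubx (-0.74 ± 0.26, adjusted p = 0.0248) were also called lower, but each lost its call in 6 of 16 alternatives. Without young midgut replicate 1, young midgut replicate 2 or young whole gut replicate 2 the log2 fold change was -0.75, -0.67 and -0.32 for Antp and -0.66, -0.81 and -0.39 for Ubx.

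Regulators of midgut regions split by gene. Homothorax (hth), a homeobox cofactor, had 67.4 and 70.5 CPM in whole gut and 31.3 and 33.6 CPM in midgut (log2 fold change 1.32 ± 0.09 (SE), adjusted p = 2.72e-08) and was higher in whole gut at the older ages as well (1.08). Caudal (cad), a posterior homeobox factor, read 85.4 and 80.1 CPM in whole gut and 59 and 68.8 CPM in midgut (0.61 ± 0.07, adjusted p = 5.19e-06). The GATA factor srp, which acts in fat body, blood and early endoderm, was lower in whole gut, 9.25 and 9.99 CPM against 36.6 and 44.8 CPM in midgut (-1.84 ± 0.10, adjusted p = 1.2e-09), and lower at the older ages (-1.15). The copper cell selector labial (lab), a midgut marker, had 18.5 and 14.3 CPM in whole gut and 21.1 and 20.6 CPM in midgut and did not pass (-0.11 ± 0.13, adjusted p = 0.492); without young whole gut replicate 1 it was called lower (-0.31), and without young whole gut replicate 2 its sign changed (0.08). Of the 11 tested, 3 were higher and 4 lower, near the shares of 25.1% and 30.7% over all genes. Library totals alone gave 2 higher and 8 lower (median -0.34).

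The smooth septate junction, which seals midgut and tubule cells, had 3 of 4 genes higher in whole gut and 0 lower. Library totals alone gave 2 higher and 1 lower (median 0.06). Among the 3, mesh (CG31004 in the files, overlapped by bnk over 1572 bases) had 1214 and 1159 CPM in whole gut against 904 and 923 CPM in midgut (0.61 ± 0.07, adjusted p = 5.53e-06). CG6981, another of the 3 and named here after its values were seen, was called at 0.15 ± 0.06, adjusted p = 0.0438 and lost its call without any 1 of the 4 libraries (0.13 to 0.18); with library totals alone its sign changed (-0.09). Of the pleated septate junction of ectodermal cells, 4 of 17 genes were higher and 4 lower, against 25.1% and 30.7% of all genes. With library totals alone 1 was higher and 10 lower (median -0.43). Nrx-IV, its defining neurexin, read 22 and 22.3 CPM in whole gut and 25.4 and 27.1 CPM in midgut without passing (-0.01 ± 0.08, adjusted p = 0.933). E-cadherin (shg) was higher in whole gut at 81.6 and 73.7 CPM against 46.2 and 50.7 CPM in midgut (0.92 ± 0.07, adjusted p = 7.11e-08), also at the older ages (0.80).

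Mucin RNA was more abundant in whole gut, with Mur18B and Muc11A as the main contributors. Peritrophic matrix and mucin genes summed to 12716 and 12473 CPM in young whole gut and 3830 and 3703 CPM in young midgut. Mur18B, a mucin-related gene at X:19107289-19108971, plus strand, supplied 6373 and 5853 of the whole gut CPM and 49.2 and 82.1 of the midgut CPM (log2 fold change 6.79 ± 0.29 (SE), adjusted p = 7.74e-08). Muc11A, another mucin gene on the same chromosome, had 2656 and 2427 CPM in whole gut and 13.6 and 25.1 CPM in midgut (7.29 ± 0.33, adjusted p = 5.94e-07). Mur18B stood at 3496 and 3906 CPM in old whole gut and between 19.2 and 34.1 CPM in old and Lam-RNAi midgut, and Muc11A at 1489 and 1638 CPM in old whole gut and between 6.1 and 10.2 CPM. For both genes the 4 whole gut libraries were far above the 6 midgut libraries. The list as a whole was divided, with 8 of 22 genes higher and 11 lower (median -0.36). Muc68E, for example, was lower in young whole gut, 57 and 68.3 CPM against 139 and 175 CPM in midgut (-1.08 ± 0.09, adjusted p = 2.1e-07), and higher in old whole gut (1.03).

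Digestive proteases of the Jonah family took a larger share of RNA in young whole gut than in young midgut. The Jonah genes, a family of chymotrypsin-like serine proteases secreted into the midgut lumen, summed to 96439 and 89798 CPM in whole gut and 66751 and 49163 CPM in midgut. Of the 16 genes 10 were higher and 4 lower, against 25.1% and 30.7% of all genes, with a median of 0.70. At the older ages the direction of the family was opposite, 1 higher and 13 lower (median -1.63). Jon99Ciii had 4580 and 4140 CPM in young whole gut and 790 and 562 CPM in young midgut (log2 fold change 2.92 ± 0.20 (SE), adjusted p = 4.68e-07), but 873 and 841 CPM in old whole gut and 3433 and 4020 CPM in old midgut (-2.30). Jonah genes that lie together are close in sequence, so the split of reads between neighbours such as Jon99Cii and Jon99Ciii is uncertain.

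Single Jonah genes differed far more than the family. Jon74E, at 3L:17539968-17542227, minus strand, had 967 and 928 CPM in young whole gut and 9.81 and 13 CPM in young midgut (log2 fold change 6.62 ± 0.12 (SE), adjusted p = 1.19e-14). The old and Lam-RNAi libraries had between 1202 and 2024 CPM. Among the 10 gut libraries the young midgut ones were the low pair. A pair of neighbouring genes had the reverse pattern. Jon66Ci (3L:8384642-8385479, plus strand) had 0.682 and 0.79 CPM in whole gut and 747 and 543 CPM in midgut (-9.55 ± 0.28, adjusted p = 4.79e-09), and Jon66Cii (3L:8385958-8386749, minus strand) had 0.8 and 0.379 CPM in whole gut and 140.1 and 129 CPM in midgut (-7.58 ± 0.18, adjusted p = 2.66e-13). In the other 6 gut libraries, Jon66Ci stood between 4.24 and 20.7 CPM and Jon66Cii between 0.275 and 2.06 CPM, both far under young midgut.

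Trypsin-family genes gave 7 higher and 2 lower of 14, against 25.1% and 30.7% of all genes. With library totals alone they gave 6 higher and 4 lower (median 0.10). The old contrast gave 1 higher and 11 lower. The chymotrypsin-like gene yip7 had 17220 and 16417 CPM in young whole gut and 6208 and 4060 CPM in young midgut (1.94 ± 0.21, adjusted p = 1.57e-05), whereas Ser6 had 56.4 and 56.4 CPM in whole gut and 285 and 280.2 CPM in midgut (-2.09 ± 0.08, adjusted p = 8.89e-11). Glycosidases gave 6 higher and 6 lower of 14. The lysosomal alpha-mannosidase LManV (CG9466) had 7769 and 8076 CPM in whole gut and 3806 and 4219 CPM in midgut (1.22 ± 0.09, adjusted p = 3.39e-08), and beta-galactosidase (Gal) had 155 and 161 CPM in whole gut and 511 and 564 CPM in midgut (-1.53 ± 0.06, adjusted p = 9.27e-11). Gal was lower in old whole gut as well (-1.28), whereas LManV had the opposite sign there (-0.71).

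Lysozymes, which break down bacterial walls in the lumen, gave 1 gene higher, 5 lower and 1 not passed of 7 (median -1.55). At the older ages 2 were higher and 5 lower, whereas with the Lam-RNAi midgut as the midgut group 5 were higher and 1 lower (median 0.76). In both young midgut libraries 5 of the 7 were above the other 8 gut libraries, against 16.1% of all genes. LysX had 158 and 144 CPM in young whole gut and 8.84 and 8.15 CPM in young midgut (log2 fold change 4.39 ± 0.09 (SE), adjusted p = 3.59e-14), and 414 and 416 CPM in old whole gut against 39.9 and 39.9 CPM in old midgut. The other lysozymes called, 5 of 7, were lower in whole gut, LysE with 161 and 153 CPM in whole gut against 1270 and 997 CPM in midgut (-2.62 ± 0.16, adjusted p = 1.47e-07) and LysC with 1719 and 1513 CPM in whole gut against 6209 and 4862 CPM in midgut (-1.55 ± 0.16, adjusted p = 9.91e-06). Of the lysozymes, 6 were called in the same direction at both ages. Against the Lam-RNAi midgut LysC was higher in whole gut (0.76) and LysE lower (-1.18). LysC, LysD and LysE are near copies, and all 3 overlap mwh on the map of the files, so their single values are uncertain.

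Npc2c, of the family that binds sterols, had 97.4 and 106 CPM in young whole gut and 0.0878 and 0.359 CPM in young midgut (log2 fold change 9.03 ± 0.31 (SE), adjusted p = 1.75e-09), whereas the old and Lam-RNAi gut libraries held between 21.9 and 65.4 CPM. Npc2d read 227 and 228 CPM in whole gut and 58.7 and 57.3 CPM in midgut (2.21 ± 0.10, adjusted p = 1.2e-09), with 269 and 313 CPM in old midgut. By contrast tobi, a glucosidase-like target of insulin and adipokinetic signalling that was picked after its values were seen, had 4.33 and 4.17 CPM in young whole gut and 1611 and 1387 CPM in young midgut (-8.23 ± 0.43, adjusted p = 1.52e-06), and between 677 and 9582 CPM in the other gut libraries. Amyrel, an amylase relative picked likewise, had 5.34 and 6.51 CPM in whole gut and 296 and 201 CPM in midgut (-5.17 ± 0.36, adjusted p = 9.57e-06), and between 17.7 and 165 CPM elsewhere. Here the young whole gut libraries were the low ones. Of the sterol-binding family, Npc2g went the other way from Npc2c and Npc2d, with log2 fold changes of -2.02 to -1.60 over the 16 alternatives. Of 15 lipase and sterol handling genes tested, 4 were higher and 9 lower (median -0.75), against 25.1% and 30.7% of all genes.

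**Figure D3:**
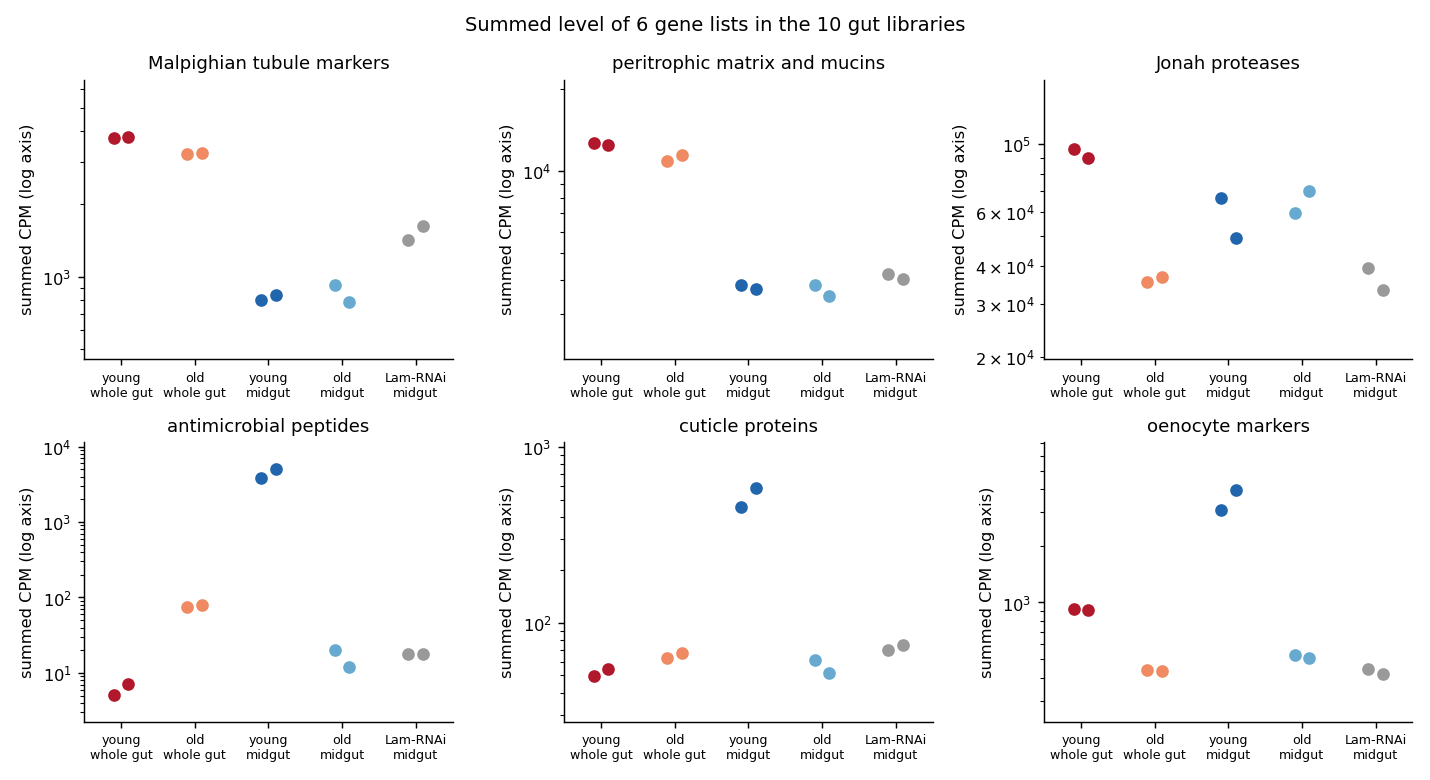
Summed CPM (log axis) of 6 gene lists in each gut library, by group, 2 libraries each. Tubule markers and mucins are highest in both whole gut groups, Jonah proteases are highest in young whole gut, and antimicrobial peptides, cuticle proteins and oenocyte markers are highest in young midgut alone.

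Antimicrobial peptide genes, the effectors of the Toll and Imd pathways, were far higher in young midgut. All 18 tested were lower in young whole gut, against 30.7% of all genes, with a median log2 fold change of -10.84, or -8.74 when the 9 genes with 3 counts or fewer in whole gut are set to 3 counts per library. The list summed to 5.1 and 7.14 CPM in young whole gut and 3824 and 5023 CPM in young midgut. Drosocin (Dro) had no count in either whole gut library and 626 and 797 CPM in midgut, at least 6545-fold lower in whole gut at a floor of 3 counts per library, on the scale of the fitted model. Attacin-D (AttD) likewise had no count in whole gut and 134 and 173 CPM in midgut, at least 1413-fold lower. The diptericin gene Dpt had 0.0296 and 0.0632 CPM, from 1 count and 2 counts, in whole gut and 767 and 1019 CPM in midgut. Drosomycin (Drs), an antifungal peptide named after its values were seen, had 0.741 and 1.61 CPM in whole gut and 322 and 437 CPM in midgut (-8.10 ± 0.32, adjusted p = 1.45e-07), and defensin (Def) had 2.73 and 4.33 CPM in whole gut and 106 and 133 CPM in midgut (-4.84 ± 0.15, adjusted p = 1.69e-11), with 399 bases shared with magu. AttA with AttB, and CecA1 with CecA2, are near copies whose reads may be split.

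The same sum was 20.05 and 12.1 CPM in old midgut, 17.6 and 17.6 CPM in Lam-RNAi midgut and 75.5 and 79.2 CPM in old whole gut, and 17 of the 18 genes were above the other 8 gut libraries in both young midgut libraries, against 16.1% of all genes. At the older ages 12 were higher in whole gut and 0 lower (median 2.20), and with the Lam-RNAi midgut as the midgut group 2 were higher, 4 lower and 12 did not pass. In fat body libraries of the series the sum was 84.2 and 124 CPM in young flies, between 22462 and 26229 CPM in 3 libraries of old flies, and 21769 and 30093 CPM in Lam-RNAi flies.

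Bacterial sensing genes were mostly lower in whole gut. Of the 13 peptidoglycan recognition genes with pirk, a feedback inhibitor of Imd, 11 were lower and 0 higher (median -1.70). The amidase gene PGRP-SC1a had 1.27 and 1.9 CPM in whole gut and 192 and 172 CPM in midgut (-6.61 ± 0.22, adjusted p = 7.88e-10). PGRP-SC2 had 279 and 251 CPM in whole gut and 1422 and 1199 CPM in midgut (-2.07 ± 0.11, adjusted p = 2.66e-09). The inhibitor pirk had 36.4 and 38 CPM in whole gut and 135 and 151 CPM in midgut (-1.70 ± 0.07, adjusted p = 7.34e-11). Its difference was opposite at the older ages (2.28). Of the stress-induced Turandot genes, TotA had 0.237 and 1.07 CPM in whole gut against 292 and 400 CPM in midgut (-8.82 ± 0.29, adjusted p = 9.93e-09) and TotM 0.534 and 0.316 CPM in whole gut against 133 and 176 CPM in midgut (-8.24 ± 0.19, adjusted p = 2.97e-13). The thioester protein gene TepI had 0 and 0.284 CPM in whole gut and 239 and 329 CPM in midgut (-10.74 ± 0.43, adjusted p = 1.45e-07). These genes, too, were far higher in young midgut than in old or Lam-RNAi midgut, as with TotA at 4.9 and 3.81 CPM in old midgut and 10.5 and 8.93 CPM in Lam-RNAi midgut.

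Many markers of oenocytes and of cuticle were also higher in young midgut. Oenocytes are the cells that make cuticular hydrocarbons, and 5 of 6 of their markers were lower in whole gut (median -2.26), and the list summed to 924 and 916 CPM in whole gut and 3093 and 3937 CPM in midgut. Cyp4g1, the P450 that completes hydrocarbon synthesis, had 311 and 318 CPM in young whole gut and 2076 and 2717 CPM in young midgut (log2 fold change -2.69 ± 0.11 (SE), adjusted p = 2.99e-10), with 43 and 46.5 CPM in old midgut and 23.5 and 18.8 CPM in Lam-RNAi midgut. Young whole gut lay between young midgut and those groups, and 2277 bases of the gene overlap CG32816. Of 36 cuticle protein genes tested out of 124 listed, 21 were lower and 7 higher, and the list summed to 49.4 and 54.6 CPM in whole gut and 456 and 583 CPM in midgut. Cpr49Ae had 7.35 and 8.53 CPM in whole gut and 203 and 265 CPM in midgut (-4.64 ± 0.17, adjusted p = 1.05e-09). Cpr100A had no count in whole gut and 11.1 and 15.6 CPM in midgut, at least 123-fold lower. The chitin synthase kkv, of ectodermal cuticle, had 0.326 and 0.79 CPM in whole gut and 3.37 and 4.83 CPM in midgut (-2.64 ± 0.37, adjusted p = 3.34e-05), although 1047 bases overlap CG14668, and 16 of 21 cuticle synthesis genes were lower, 3 higher. The chitin synthase CS-2, which serves the peritrophic matrix of the midgut, was higher in whole gut at 278 and 271 CPM against 228 and 207 CPM in midgut (0.57 ± 0.08, adjusted p = 5.32e-05).

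Blood cell markers were divided. Of 11 hemocyte markers 7 were lower and 2 higher in whole gut, against 30.7% and 25.1% of all genes. The 2 higher ones, named after their values were seen, were the prophenoloxidase genes, enzymes of melanin formation in blood cells. proPO-A1 read 11.9 and 11.9 CPM in whole gut and 2.11 and 3.76 CPM in midgut (2.26 ± 0.21, adjusted p = 6.86e-07), with 2760 bases shared with elk, and PPO2 (CG8193 in the files) read 11 and 8.03 CPM in whole gut and 2.2 and 3.67 CPM in midgut (1.94 ± 0.23, adjusted p = 7.78e-06). Both were also higher in old whole gut (2.49 and 2.03). Hemolectin (Hml), which serves clotting, had 8.03 and 8.03 CPM in whole gut and 56.4 and 78.1 CPM in midgut (-2.82 ± 0.20, adjusted p = 4.5e-07). The phagocytosis receptor eater had 0.474 and 0.474 CPM in whole gut and 4.92 and 6.13 CPM in midgut (-3.29 ± 0.35, adjusted p = 2.42e-06). Tracheal markers were lower in 5 of 6 cases, with the chitin deacetylase verm at 2.64 and 2.75 CPM in whole gut and 21.7 and 25.7 CPM in midgut (-2.90 ± 0.16, adjusted p = 1.67e-09). Of 43 odorant-binding protein genes listed, 18 were tested, with 12 lower and 3 higher. Obp99c had 20.8 and 16.9 CPM in whole gut and 144 and 192 CPM in midgut (-2.91 ± 0.16, adjusted p = 8.3e-08). The summed levels of the odorant-binding and cuticle protein lists were highest among gut groups in young midgut. Genes of both lists could therefore pass the filter through that group. Both young midgut libraries held the highest gut levels of 13 of the 18 odorant-binding genes tested and of 21 of the 36 cuticle protein genes. The share over all genes was 16.1%, and the 2 counts are descriptions, since the filter can favour this order.

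Fat body markers did not move as a block. Of 16 tested, 10 were lower and 4 higher, and the list summed to 5534 and 5256 CPM in young whole gut and 6014 and 7371 CPM in young midgut, above the 1445 and 1498 CPM of old midgut and the 1413 and 1468 CPM of Lam-RNAi midgut. The iron carrier transferrin (Tsf1) had 26.6 and 21.5 CPM in whole gut and 639 and 821 CPM in midgut (-4.68 ± 0.13, adjusted p = 4.98e-11), and Fbp1, a receptor for storage proteins, had 0.356 and 0.948 CPM in whole gut and 10.4 and 15.5 CPM in midgut (-4.08 ± 0.33, adjusted p = 1.82e-07). The storage protein gene Lsp2 was higher in whole gut, 93.1 and 102 CPM against 47.2 and 60.1 CPM in midgut (1.10 ± 0.08, adjusted p = 7.47e-08). Yolk protein Yp1, made by the fat body and ovary of females, had 1828 and 1717 CPM in whole gut and 2113 and 2607 CPM in midgut and did not pass (-0.17 ± 0.09, adjusted p = 0.134). Its values were 1073 and 1161 CPM in old whole gut, 425 and 477 CPM in old midgut and 377 and 396 CPM in Lam-RNAi midgut. Of 14 ovary and eggshell genes listed, 7 were tested and 6 of these were lower, with osk at 0 and 0.0316 CPM in whole gut and 3.22 and 3.67 CPM in midgut. The summed level of this list was highest among gut groups in young midgut. Its genes could pass the filter through that group, so the count is a description. The X-linked dosage compensation RNA roX1, a mark of male tissue, had 0.0889 and 0.158 CPM in whole gut and 0.937 and 1.16 CPM in midgut (-2.83 ± 0.54, adjusted p = 0.000475). The part of adjoining tissue in the peptide and cuticle differences was not tested.

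**Figure D4:**
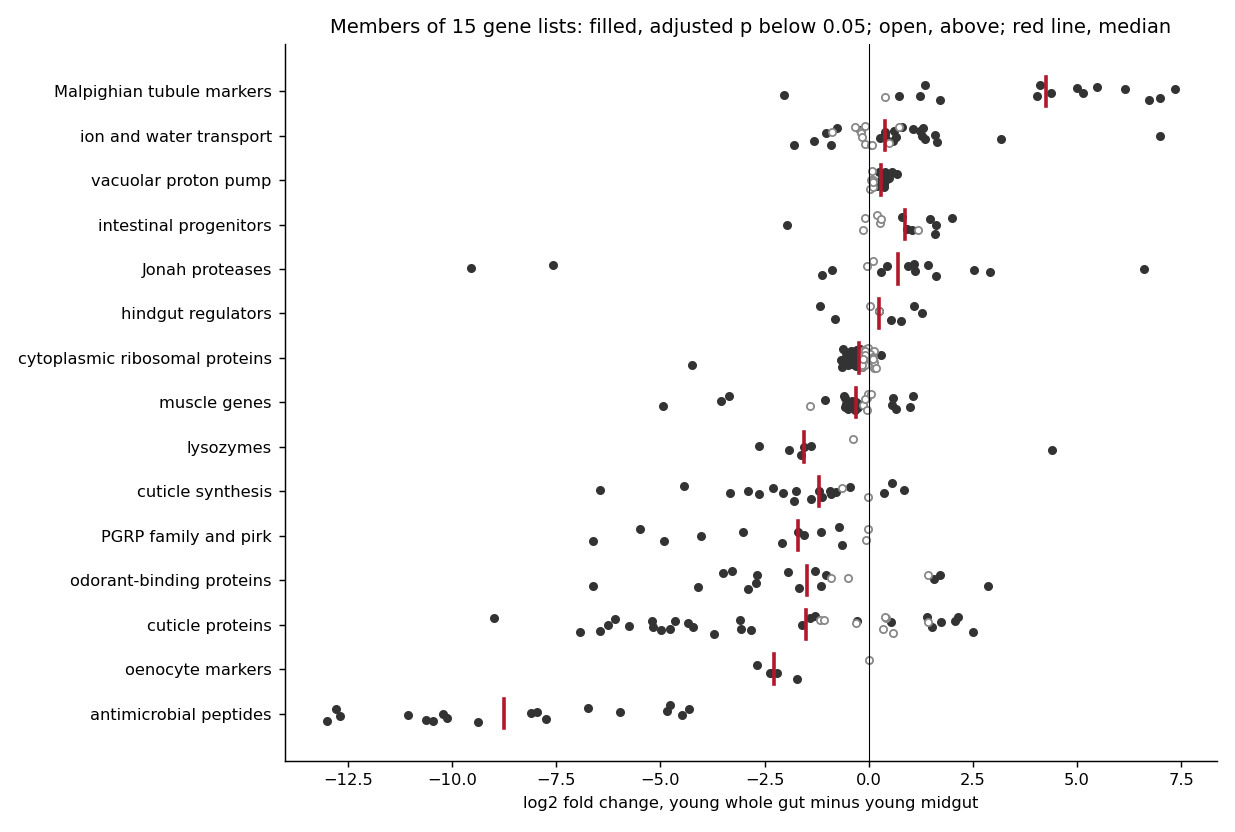
Log2 fold change (young whole gut relative to young midgut) of each tested member of 15 gene lists, filled where the adjusted p was below 0.05 and open where it was not, with the median as a red line and a group with 3 counts or fewer set to 3 counts per library. Tubule markers lie mostly between 4 and 8, proton pump subunits close to 0 on the positive side, and antimicrobial peptides all below -4.

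Of 30 muscle genes tested, 18 were lower and 5 higher in young whole gut (median -0.31), against 30.7% and 25.1% of all genes. At the older ages 24 were higher and 1 lower (median 0.63). Both young midgut libraries were above the other 8 gut libraries for 22 of the 30, against 16.1% of all genes. Myosin heavy chain (Mhc) had 959 and 947 CPM in whole gut and 1129 and 1196 CPM in midgut and did not pass (-0.05 ± 0.07, adjusted p = 0.567), with 448 and 401 CPM in old midgut. Msp-300, a nesprin that anchors muscle nuclei, was higher in whole gut at both ages, 619.9 and 655 CPM against 359 and 399 CPM in midgut in the young groups (0.99 ± 0.06, adjusted p = 1.44e-08). Basement membrane genes were lower in 5 and higher in 2 of 10 cases (1 higher and 8 lower, median -0.58 with library totals alone), with collagen IV (vkg) at 36.1 and 35.4 CPM in whole gut and 61.9 and 76 CPM in midgut (-0.71 ± 0.09, adjusted p = 1.2e-05). Neuron and glia markers mostly did not pass, 10 of 15, with 2 higher and 3 lower, or 1 higher and 6 lower (median -0.32) with library totals alone. The neuronal gene elav read 5.16 and 5.72 CPM in whole gut and 4.33 and 4.91 CPM in midgut (0.47 ± 0.15, adjusted p = 0.0175) with 6379 bases overlapping arg, and lost its call without young midgut replicate 1 (0.45) or young midgut replicate 2 (0.50).

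Of 14 intestinal stem and progenitor genes, 7 were higher, against 25.1% of all genes, 1 was lower and 6 did not pass (median 0.86). Escargot (esg), the snail-family factor of stem cells and enteroblasts, had 27.5 and 30.3 CPM in whole gut and 12.2 and 10.4 CPM in midgut (log2 fold change 1.59 ± 0.12 (SE), adjusted p = 8.22e-08). Old whole gut and old midgut did not differ past the threshold (23.4 and 25.8 CPM against 25.2 and 21.3 CPM, adjusted p = 0.557). Lam-RNAi midgut had 24.5 and 21.2 CPM, so the young midgut libraries were again the low ones. malpha, a Notch target of the E(spl) complex, had 4.83 and 4.08 CPM in whole gut and 1.23 and 1.38 CPM in midgut (2.01 ± 0.22, adjusted p = 3.69e-06) and was higher in old whole gut too (1.47). Delta (Dl), the Notch ligand of stem cells and named here as a defining marker, had 5.01 and 5.82 CPM in whole gut and 6.41 and 7.18 CPM in midgut and did not pass (-0.09 ± 0.14, adjusted p = 0.598). Of 29 cell cycle genes, 13 were lower, against 30.7% of all genes, and 0 higher, with cyclin B (CycB) at 1.1 and 1.17 CPM in whole gut and 5.65 and 6.16 CPM in midgut (-2.14 ± 0.24, adjusted p = 4.32e-06). In old whole gut 19 of them were higher.

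Enteroendocrine genes, which encode gut hormones and their regulators, mostly did not pass. Of 16 tested, 6 were higher, 1 lower and 9 did not pass. With library totals alone they were 3 higher and 1 lower (median -0.06). The hormone gene CCHa2 (CG14375) was lower in whole gut at 70.1 and 69.7 CPM against 140.2 and 144 CPM in midgut (-0.79 ± 0.08, adjusted p = 2.3e-06), as at the older ages (-1.34), whereas Mip was higher, 5.19 and 6.16 CPM in whole gut against 2.43 and 2.29 CPM in midgut (1.5 ± 0.18, adjusted p = 6e-06), and lower at the older ages (-1.01). Of 120 taste and ionotropic receptor genes listed, 35 were tested, with 13 higher and 1 lower, against 25.1% and 30.7% of all genes. Library totals alone gave 12 higher and 3 lower (median 0.58). Gr98a, for example, had 4.36 and 4.17 CPM in whole gut and 0.0293 and 0.221 CPM in midgut (5.28 ± 0.40, adjusted p = 6.81e-08). The difference was 3.78 at the older ages.

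Most cytoplasmic ribosomal protein genes were slightly lower in whole gut. Of 84, 54 were lower, against 30.7% of all genes, and 1 higher (median -0.24), and 53 were lower at the older ages too, where 75 were called lower. The median over all genes was -0.06, and with library totals alone the list gave 0 higher and 75 lower (median -0.48). RpL27 had 456 and 424 CPM in whole gut and 698 and 822 CPM in midgut (-0.55 ± 0.08, adjusted p = 3.39e-05). On the scale of the TMM factors, 63 of the 84 were below all 6 midgut libraries in all 4 whole gut libraries, against 11.2% of all genes. In CPM of the library totals the list did not separate this way. It summed to 63093 and 64909 CPM in old whole gut and to 60365 and 68594 CPM in young midgut. Mitochondrial ribosomal protein genes were lower in 27 and higher in 2 of 72 cases, against 30.7% of all genes lower, and library totals alone gave 1 higher and 53 lower (median -0.47). Proteasome genes were higher in 8 and lower in 1 of 21 cases, a direction that flipped with library totals alone, 2 higher and 4 lower (median -0.12).

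Stress, metal and clock genes each had members on both sides. Metallothionein A (MtnA), which binds copper, was lower in whole gut at both ages, 831 and 763 CPM against 3286 and 3539 CPM in midgut in the young groups (-1.86 ± 0.09, adjusted p = 3.75e-10) and -2.04 in the old. The zinc importer gene Zip3 had 45.4 and 43.3 CPM in whole gut and 177 and 199 CPM in midgut (-1.84 ± 0.07, adjusted p = 7.47e-11). Heat shock genes were higher in 7 and lower in 4 of 18 cases (median 0.21, and with library totals alone 5 higher and 5 lower, median -0.03). Hsp67Bc had 12.7 and 14.4 CPM in whole gut and 3.78 and 4.47 CPM in midgut (1.95 ± 0.13, adjusted p = 1.48e-08). Clock genes were higher in 5 of 8, with timeless (tim) at 858 and 842 CPM in whole gut and 653 and 674 CPM in midgut (0.60 ± 0.08, adjusted p = 1.54e-05) and -0.25 at the older ages. Cytochrome P450 genes were higher in 26 and lower in 29 of 74 cases, glutathione transferases in 7 and 13 of 21, and UDP-glycosyltransferases in 7 and 8 of 17. Over all genes the shares were 25.1% higher and 30.7% lower. With library totals alone the P450 genes gave 22 higher and 38 lower (median -0.30) and the UDP-glycosyltransferases 4 higher and 10 lower (median -0.55). The P450 Cyp28d1 had 50.5 and 48.2 CPM in whole gut and 929.8 and 930 CPM in midgut (-4.0 ± 0.12, adjusted p = 2.8e-11), with its direction kept at the older ages (-1.41).

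Nuclear lamina genes were higher in 2 and lower in 3 of 9 cases, against 25.1% and 30.7% of all genes. With library totals alone they were 2 higher and 6 lower (median -0.43). Lam was lower in young whole gut (-0.51 ± 0.09, adjusted p = 0.000279, at the CPM values given above) and lower at the older ages (-0.30, adjusted p = 0.0103). LamC, the A-type lamin, had 64 and 68.4 CPM in whole gut and 55.7 and 60 CPM in midgut (0.43 ± 0.06, adjusted p = 3.27e-05), although 4998 bases overlap ttv, and was higher in old whole gut (1.08). Among the remaining lists, 2 higher and 3 lower of 9 were counted for ectodermal epithelium, 0 and 1 of 4 for male and testis markers, 3 and 0 of 6 for salivary gland markers, 6 and 8 of 17 for metal handling, 2 and 6 of 11 for JAK-STAT and Turandot, and 5 and 4 of 10 for pigment and genotype genes. Library totals alone gave 1 higher and 6 lower (median -0.34) for the ectodermal epithelium list. The eye colour gene white (w), a common transgene marker, had 0.148 and 0.0632 CPM in young whole gut and 1.7 and 3.18 CPM in young midgut (-4.23 ± 0.58, adjusted p = 3.03e-05), with 0.93 and 0.529 CPM in old whole gut and 1.94 and 1.66 CPM in old midgut.

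With the Lam-RNAi midgut of the same age in place of young midgut, 6257 genes (60.6%) were called, 3064 (29.7%) higher and 3193 (30.9%) lower in young whole gut. Genes at least 8-fold lower numbered 221 in that comparison and 475 in the one with young midgut, which share the whole gut libraries. Side by side, the 2 comparisons gave 14 and 14 higher tubule markers, 7 and 21 lower cuticle protein genes, 4 and 18 lower antimicrobial peptide genes, and 6 and 0 higher oenocyte markers. Uro, Mur18B and Atpalpha were higher in whole gut with each of the 3 midgut groups. Jon74E was higher against young midgut (6.62) and lower against Lam-RNAi midgut (-0.49) and, at the older ages, old midgut (-0.84). Gut region and gut series cannot be told apart in any of these comparisons.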

How the data were processed

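RNA was purified with a PicoPure kit and poly-A libraries were made with TruSeq v2, per the labels' protocols. The deposited counts are whole-number tags per gene, and the submitters' processing notes name CASAVA 1.8, TopHat2 and edgeR; the genome build is not given in the sources used here. The 15080 entries were joined to 14095 genes by position and counts. Counts of the 10 gut libraries were fitted in edgeR 4.0.16 (R 4.3.3) with TMM factors, its expression filter and the robust quasi-likelihood test, and p-values were adjusted by Benjamini-Hochberg over 10327 genes. CPM is a count divided by the library total, times 1e6. Orders over the 10 gut libraries were read in CPM divided by the TMM factors. The 2 gut series were compared by title. Tables and figures were made with Python 3.11.15, numpy 2.4.6, pandas 2.3.3 and matplotlib 3.10.9. DESeq2 1.42.0 and limma 3.58.1 served as alternatives. Data were also simulated from the mean levels and spread of the fit, with the same spread in both groups. The fit recovered 92% of 100 genes changed 2-fold and 97% of 100 changed 4-fold, as many up as down. It called 7 unchanged genes, with 10229 genes fitted in all. Only genes above a minimum mean count were changed, and far fewer than the 55.7% called in the real data. The simulation therefore does not measure the error of the real calls.

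Members and the 46 gene lists were chosen with earlier results of these data known. Genes were named if they passed, had non-overlapping groups, averaged 3 or more in log2 CPM, had no computed number as symbol and ranked among the 12 largest rises or the 12 largest falls, if they were among the 4 members of a list with the smallest p, or if they were defining markers. Cyp4e3, tio, Cyp6g1, tobi, Amyrel, Drs, CG17752 and PPO2 (CG8193) were chosen after their values were seen. CG6981 and proPO-A1 met the rule for named genes and were singled out after their values were seen. Replicates of a group differed beyond counting error, with chi-square per gene of 10.7 in young whole gut and 51.4 in young midgut.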

Additional observations from a re-analysis of the deposited data

Results flagged for a closer look

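The whole gut and midgut difference was not the same at the 2 ages for 4602 genes, 44.6% of those tested, by the interaction term of the edgeR fit. The old groups differ in age, 40 days for whole gut and 50 days for midgut, so age and label cannot be told apart there. Of 39 genes examined singly, 27 differed between the ages. The 39 were the 12 largest rises and 12 largest falls of the young contrast together with the defining genes. Most were thus picked for a large young difference, so the count of 27 is a description. On the log2 scale the young difference exceeded the old one by 10.44 for Npc2c, 7.46 for Jon74E, 1.67 for esg, 1.41 for Syt4, 1.16 for byn and 0.52 for CS-2. The young difference was lower than the old one, as young minus old, by -3.53 for Uro, -2.78 for w, -2.32 for kkv, -1.30 for Yp1, -1.27 for Irk3, -0.91 for Mhc, -0.76 for Scp2, -0.39 for Nrx-IV and -0.30 for mesh (CG31004).

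Immune genes made up the rest. The young minus old value was -15.83 for DptB, -14.40 for TepI, -12.98 for IM18/CG10332 and -12.60 for AttB. For genes with 3 counts or fewer in a group no fold is given, and edgeR's adjusted p of the interaction was 0.00176 for Dro, 3.55e-09 for AttD, 5.14e-07 for AttC, 3.5e-05 for Dpt, 5.25e-08 for CecC, 4.5e-06 for TotX, 0.000135 for CecA2 and 1.34e-06 for CecA1.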

How the results depend on the processing

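With 2 libraries a group, leaving out each young library in turn gave 4759 to 5994 called genes, 2146 to 2675 higher and 2613 to 3319 lower, 2167 to 2676 calls shared with the older ages, 8 to 10 higher Jonah genes, 14 to 15 higher tubule markers, 16 to 17 higher ion transport genes, 18 to 18 lower antimicrobial peptide genes, 18 to 21 lower cuticle protein genes and 36 to 48 lower cytoplasmic ribosomal protein genes. Library totals alone gave 1522 higher and 4898 lower genes. A fit of the 4 compared libraries alone gave 4642 calls, 2351 higher and 2291 lower, so there the excess of lower genes was absent. All 17 libraries in a single fit gave 4692 calls, 2150 higher and 2542 lower, with 1755 shared with the older ages. A minimum of 2-fold left 2053 calls, 775 higher and 1278 lower, with 581 shared with the older ages, 9 ion transport genes higher and 1 cytoplasmic ribosomal protein gene lower. The labels give no pairing of replicate numbers. Deviations from the group means had a correlation of -0.00533 between same-numbered young libraries, which cannot settle whether those were handled together. With replicate number as a block the fit gave 5564 calls, 2494 higher and 3070 lower.

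Of the 193 named genes, 1 with a call changed sign under the other scalings, filters, tools, thresholds and sample sets tried: CG6981, at -0.094 with library totals alone. Among those without a call, Nrx-IV changed sign to 0.035 in the 4 compared libraries alone, 0.017 in DESeq2, 0.017 with its size factors, 0.013 in all 17 libraries and 0.0042 without young whole gut replicate 1 (-0.0296 to 0.0169 over the left-out libraries). Likewise lab stood at 0.083 without young whole gut replicate 2 and at -0.31 to 0.083 over the left-out libraries. A call was lost with its sign kept 125 times, in 65 genes. The Lam-RNAi midgut as midgut group, chosen after seeing the data, changes the samples compared; it gave 4 lower antimicrobial peptide, 7 lower cuticle protein and 83 lower cytoplasmic ribosomal protein genes. Under it 43 named genes with a call changed sign, some without passing in the new direction, with log2 fold changes of -0.49 for Jon74E, 1.68 for hh, -0.13 for byn, 0.71 for abd-A, 0.47 for Ubx, 0.25 for Antp, 0.051 for pnr, 0.35 for vvl, 0.62 for Idgf2, 0.86 for Idgf1, 2.92 for Cpr49Ab, 0.87 for Cpr49Ae, 0.19 for Muc68E, -0.21 for CG6981, 0.17 for Mlp60A, 0.41 for Vmat, 0.35 for serp, 0.42 for Hml, 0.41 for eater, 0.37 for BM-40-SPARC, 0.96 for vkg, 3.22 for Obp99b, 0.37 for Fbp1, 4.48 for CG17374, 3.56 for v(2)k05816, 4.28 for Cyp4g1, 4.0 for eloF, 1.29 for Jon66Cii, 0.72 for LysD, 0.76 for LysC, 0.94 for Npc2g, 0.20 for Zip3, 0.009 for Cyp6a20, 1.64 for GstD9, 1.44 for Obp99a, 2.18 for Def, 0.98 for pirk, 0.18 for PGRP-LB, 0.46 for zfh1, 0.58 for Hsp26, -0.084 for LamC, -0.64 for otp and -0.091 for CS-2. Of those without a call, 4 changed sign, 0.23 for lab, 0.28 for Nrx-IV, 1.06 for Mhc and 2.58 for Yp1. The cause was not tested. The shared count could not be given with the 4 compared libraries alone or with that group.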
